A study of Mus musculus with 5 samples.

Results

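The 30 genes described here carry pyruvate into mitochondria, turn the tricarboxylic acid (TCA) cycle, link it to the cytosol and feed it with glutamine. They were taken by symbol from the deposited expression matrix of mouse neuroepithelial cells (NECs), in which each symbol had 1 row, and make up 30 of its 21801 genes. NECs form the wall of the early neural tube, divide there and give rise to radial glia. The series holds 5 RNA-seq libraries of 1 group, replicates 1 to 5 of purified mouse NECs from the developing neocortex. No treatment, mutation or second condition is named in the labels. The strain, the age of the embryos, the way of purification and whether the replicates came from separate animals are not stated in the labels, so p-values measure the spread between these libraries, which may be technical. All comparisons below are therefore of a gene with a fixed level, of a gene with another gene in the same library, or of the libraries with each other.

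Pyruvate from glycolysis is either reduced to lactate or enters mitochondria through the pyruvate carrier. There pyruvate dehydrogenase makes acetyl-CoA from it and pyruvate carboxylase makes oxaloacetate. The cycle oxidises acetyl-CoA and passes electrons to the respiratory chain, and it also gives up citrate for lipid synthesis and oxaloacetate for aspartate. Glutamine refills the cycle through glutaminase and then glutamate dehydrogenase or a transaminase, which together are called glutaminolysis. Proliferating cells, embryonic neural progenitors among them, are known for high rates of glycolysis and for using the cycle as a source of building blocks.

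Values are FPKM (sequenced fragments for each kilobase of a transcript and each 1000000 reads that mapped), so levels of different genes are compared per length. The FPKM of a library summed to between 747034 in replicate 1 and 847625 in replicate 4, and single-read steps among the lowest values put the totals at about 20600000 to 28400000 reads per library. Genes such as Actb were listed at 0 throughout, so a 0 in these files can be a failed estimate. Of 10 neural progenitor markers, 9 lay above 1 FPKM (52.3% of all tested genes) and none below (41.4%) by limma's test described in the next paragraph (none below at an unadjusted p under 0.05 either), with Pax6 at 64.6 and Sox2 at 11.6 FPKM on average. Other markers of this list lay above or below these levels. At a level of 10 FPKM 4 of the 10 lay above (27.7% of all tested genes), 4 below (68.4%) and 2 on neither side. Some markers of other cell types were called as well: 8 of 9 mesenchyme, 6 of 6 surface ectoderm, 5 of 7 neuron, 2 of 5 neural crest, 1 of 5 endothelium and 0 of 5 blood markers lay above 1 FPKM (limma, also 0 for blood at an unadjusted p under 0.05). Over all tested genes 52.3% lay above 1 FPKM, and the neural crest, endothelium and blood lists were under that share. Their summed levels ran from 38.5 to 139.5 FPKM for mesenchyme, 115 to 177 for surface ectoderm, 87.7 to 124 for neuron, 13.0 to 37.0 for neural crest, 5.00 to 7.96 for endothelium and 1.66 to 4.72 for blood, against 249 to 297 for the progenitor markers. These sums also depend on the length of each list. The median of the gene means was 17.5 FPKM for surface ectoderm, above the 10.9 FPKM of the progenitor markers. It was 9.56 FPKM for mesenchyme, 8.53 for neuron, 1.14 for endothelium, 0.838 for neural crest and 0.561 for blood. Foxd3 of the crest list and Ptprc of the blood list were at 0 in some libraries, and no marker was at 0 in every library. In bulk RNA a lower share of a cell type and less RNA per cell cannot be told apart, and the part of other cell types in the levels below was not tested.

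Nearly all of the 30 genes were expressed well above 1 FPKM, a common floor for detection, and 12 of them above 100 FPKM. limma's moderated test of log2(FPKM + 1) over the 5 libraries, with Benjamini-Hochberg adjustment over the 19706 genes above 0 in at least 1 library (all 30 among them), called 28 of the 30 above 1 FPKM, where 52.3% of all tested genes were called. None of the 30 was called below 1 FPKM, at an adjusted or an unadjusted p under 0.05, where 41.4% of all genes were. At a level of 10 FPKM 25 of the 30 lay above (27.7% of all genes) and 4 below (68.4%). At 100 FPKM 12 of the 30 lay above (6.80% of all genes), 14 below (92.0%) and 4 could not be placed on either side. The median over the 30 genes was 93.4 ± 6.68 FPKM (SD, n = 5 libraries), against 1.75 ± 0.0463 FPKM over all tested genes. By mean level the genes ranked from 152 (Mdh2) to 10862 (Gls2) among the 19706, and their sum took 0.509% to 0.545% of each library's FPKM. Setting every library to the same total of 1000000 FPKM raised the members by a median of 0.32 and all genes averaging 1 FPKM or more by a median of 0.30 on the log2 scale, and then placed 16 of the 30 above 100 FPKM and 13 below. Below, a level is the mean ± SD over the 5 libraries (n = 5), and an adjusted p is limma's against the level named.

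**Figure D1:**
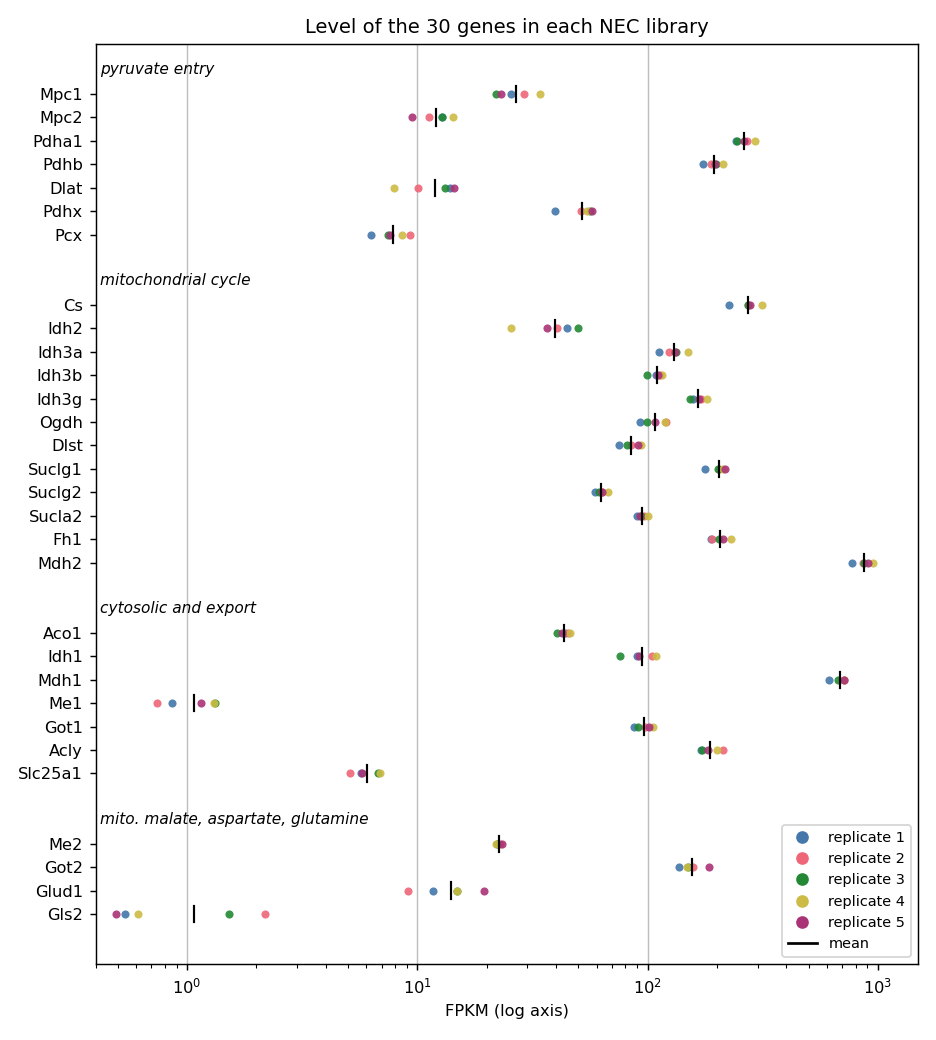
FPKM of each of the 30 genes (log axis), with 1 coloured point per library, a black bar at the mean and grey lines at 1, 10 and 100 FPKM. Mdh2 and Mdh1 stand apart at the right, between 611 and 951 FPKM, while Me1 and Gls2 scatter around 1 FPKM.

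The upstream sequences of the genes were rich in CpG and GC boxes, as were those of other genes expressed at 10 FPKM or more. RefSeq promoters (GRCm38.p6, 250 bases before to 50 after the start) were found for 27 of the 30, and the first listed promoter of each was searched on both strands. The CpG dinucleotide occurred a median of 23 times in these 27 windows, from 13 in Suclg2 to 51 in Glud1, against 7 times over all 27025 genes of the RefSeq table and 22 times over the 4460 genes with a promoter and an average of 10 FPKM or more here. The GC box word GGGCGG stood in 21 of 27 windows (77.8%), against 35.9% of all genes and 66.5% of the genes at 10 FPKM or more. The CCAAT word stood in 16 (59.3%), against 37.9% and 42.7%. TATAAA was found in 1 window, that of Got2 (3.70%, against 14.2% and 6.30%), and the cyclic AMP response word TGACGTCA in those of Mdh2 and Ogdh (7.41%, against 1.88% and 4.04%). The E-box word CACGTG stood in those of Pcx and Slc25a1 (7.41%, against 7.24% and 11.3%). These are matches of letters and were not tested as sites. The 150 bases before the start are printed for the enzyme that opens the cycle (Cs), a gene with the cyclic AMP response word (Ogdh), and the abundant lyase and the scarce carrier of citrate export (Acly and Slc25a1), all 4 clear of GENCODE exons. Capitals mark the GC box, CCAAT and cyclic AMP response words of either strand.
Cs (chr10:128337577-128337726, plus strand): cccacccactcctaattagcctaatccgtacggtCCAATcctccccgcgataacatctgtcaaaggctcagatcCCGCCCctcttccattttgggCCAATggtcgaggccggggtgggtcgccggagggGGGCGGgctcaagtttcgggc
Ogdh (chr11:6291447-6291596, plus strand): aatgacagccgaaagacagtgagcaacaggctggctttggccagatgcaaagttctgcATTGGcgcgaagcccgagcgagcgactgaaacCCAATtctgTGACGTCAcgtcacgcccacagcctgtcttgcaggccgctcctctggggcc
Acly (chr11:100528001-100528150, minus strand): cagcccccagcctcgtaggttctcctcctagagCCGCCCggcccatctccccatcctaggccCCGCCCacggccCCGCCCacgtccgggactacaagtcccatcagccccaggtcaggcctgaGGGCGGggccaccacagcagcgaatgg
Slc25a1 (chr16:17928220-17928369, minus strand): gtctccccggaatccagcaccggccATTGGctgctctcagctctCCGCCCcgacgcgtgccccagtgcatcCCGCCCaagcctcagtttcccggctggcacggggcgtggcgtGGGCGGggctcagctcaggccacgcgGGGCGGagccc
The stretch of Cs held 2 GC box and 2 CCAAT words, and that of Ogdh held 1 cyclic AMP response word and 2 CCAAT words. Those of Acly and Slc25a1, whose levels differ widely, held 4 GC box words each, with 10 and 15 CpG dinucleotides.

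Pyruvate entry joined abundant and scarce transcripts. The catalytic first component of pyruvate dehydrogenase, made of the subunits Pdha1 and Pdhb, was among the highest of the 30, while its acetyltransferase core Dlat, the carrier subunits Mpc1 and Mpc2 and pyruvate carboxylase stood far lower. Of the 7 genes of this step 5 lay above 10 FPKM (27.7% of all tested genes), Pcx lay below (68.4%) and Dlat could not be placed. Above 100 FPKM lay 2 (6.80%). Their median was 26.7 ± 4.87 FPKM.

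Mpc1 and Mpc2 form the mitochondrial pyruvate carrier as a pair. Mpc1 had 25.4, 29.0, 22.0, 34.0 and 23.1 FPKM in replicates 1 to 5. Mpc2 had 12.8, 11.2, 12.7, 14.3 and 9.43 FPKM in replicates 1 to 5. Mpc1 was the higher in every library and the ranges did not overlap, with a difference of Mpc1 minus Mpc2 of 1.07 ± 0.23 on the log2(FPKM + 1) scale. Both were highest in replicate 4. The call of Mpc2 above 10 FPKM (log2 difference 0.24, SE 0.08, adjusted p = 0.026) was lost without replicate 1 (difference 0.22, adjusted p = 0.069), without replicate 3 (0.22, adjusted p = 0.071) or without replicate 4 (0.18, adjusted p = 0.09).

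Pdha1 (ENSMUSG00000031299, chromosome X, 160122209 to 160138413 on mm10), the alpha subunit that carries the catalytic and regulatory sites, had 242, 271, 245, 293 and 263 FPKM in replicates 1 to 5. Pdhb, its beta partner, had 173, 188, 197, 212 and 196 FPKM in replicates 1 to 5. Both lay above 100 FPKM (Pdha1: log2 difference 1.38, SE 0.05, adjusted p = 1.9e-08), and the difference of Pdha1 minus Pdhb was 0.44 ± 0.08 on the log2 scale, with Pdha1 higher in 5 of 5 libraries. Dlat, the dihydrolipoamide acetyltransferase of the core, had 13.8, 10.1, 13.2, 7.95 and 14.4 FPKM in replicates 1 to 5, and Pdhx, which binds the third component to that core, had 39.5, 51.3, 56.0, 54.4 and 57.4 FPKM in replicates 1 to 5. Dlat was thus 2.71% to 5.70% and Pdhx 16.3% to 22.9% of the FPKM of Pdha1, and Dlat minus Pdhx was -2.05 ± 0.43 with no overlap of the ranges. Dld, the dihydrolipoamide dehydrogenase shared with the oxoglutarate complex, is not among the 30 and stood at 135 ± 18.8 FPKM, 46.3% to 55.7% of Pdha1. Dlat was lowest in replicate 4, the library in which Pdha1, Pdhb and Dld were highest, and without replicate 4 it was called above 10 FPKM (difference 0.32, adjusted p = 0.014, against 0.20 and 0.15 with all libraries). It was also called above 10 FPKM after rescaling to a sum of 1000000 FPKM (0.50, adjusted p = 0.0095).

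Pcx, the pyruvate carboxylase that makes oxaloacetate, had 6.29, 9.30, 7.42, 8.58 and 7.60 FPKM in replicates 1 to 5 and lay below 10 FPKM (log2 difference -0.33, SE 0.08, adjusted p = 0.0066). Pdha1 exceeded it 29.1- to 38.5-fold in FPKM, or by 4.91 ± 0.12 on the log2 scale. Rescaled to a sum of 1000000 FPKM, Pcx was no longer called against 10 FPKM (difference -0.03, adjusted p = 0.67). For scale, the lactate dehydrogenase subunit Ldha stood at 3821 ± 159 FPKM, and Pdha1 had 6.32% to 7.32% of its level.

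**Figure D2:**
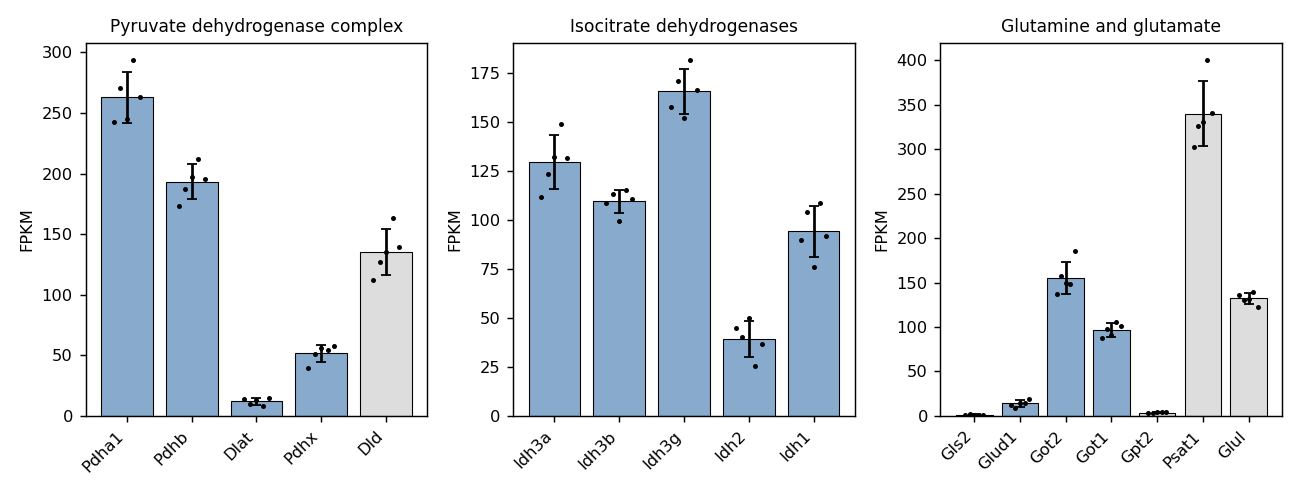
Mean FPKM (bars from 0), SD over 5 libraries (whiskers) and the 5 library values (points, replicates 1 to 5 from left to right) for the pyruvate dehydrogenase complex, the isocitrate dehydrogenases and enzymes of glutamine and glutamate. Blue bars are among the 30 genes and grey bars are other genes of the pathway; Dlat, at 7.95 to 14.4 FPKM, is far under the other subunits of its complex.

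The genes of the mitochondrial cycle were the most abundant group of the 30. All 12 lay above 10 FPKM (27.7% of all tested genes), with a group median of 121 ± 8.94 FPKM. At 100 FPKM 7 of them lay above (6.80%), 3 below (92.0%) and 2 on neither side. Mdh2, the malate dehydrogenase that closes the cycle (ENSMUSG00000019179, chromosome 5, 135778480 to 135790398), was the highest of the 30 at 773, 866, 868, 951 and 910.1 FPKM in replicates 1 to 5. Cs, the citrate synthase that opens it, had 225, 272, 272, 314 and 279 FPKM in replicates 1 to 5. In both genes replicate 1 was the lowest and replicate 4 the highest, and Mdh2 exceeded all other members in each library.

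Aconitase and isocitrate dehydrogenase follow citrate synthase. Aco1, the cytosolic aconitase that also serves as iron regulatory protein, had 43.9, 44.9, 40.5, 45.9 and 42.3 FPKM in replicates 1 to 5, and lay above 10 and below 100 FPKM. The NAD-dependent isocitrate dehydrogenase is built from Idh3a, the catalytic subunit, with Idh3b and Idh3g. Idh3a had 112, 124, 132, 149 and 132 FPKM in replicates 1 to 5. Idh3b and Idh3g ran from 99.8 to 116 FPKM and from 152 to 182 FPKM. The subunits stayed within a narrow band: Idh3a minus Idh3b was 0.24 ± 0.16, with overlapping ranges although Idh3a was higher in 5 of 5 libraries, and Idh3a minus Idh3g was -0.36 ± 0.12, with Idh3g higher in 5 of 5. Idh3b lay close to 100 FPKM (log2 difference 0.13, SE 0.04, adjusted p = 0.016), and its call above that level was lost without replicate 2 (0.12, adjusted p = 0.055) or without replicate 5 (0.13, adjusted p = 0.054).

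Other isocitrate dehydrogenases, which use NADP, were lower. Idh2, the mitochondrial form, had 44.7, 40.3, 50.1, 25.4 and 36.6 FPKM in replicates 1 to 5. Idh1, the form of the cytosol and peroxisomes, had 89.8, 104, 76.2, 109 and 92.0 FPKM in replicates 1 to 5. Idh1 was higher than Idh2 in 5 of 5 libraries (Idh2 minus Idh1 -1.26 ± 0.54), but the gap varied, from -0.60 in replicate 3 to -2.06 in replicate 4. Idh3a minus Idh2 was 1.72 ± 0.48, and Idh2 had 17.0% to 40.0% of the FPKM of Idh3a. Idh2 was lowest in replicate 4 and highest in replicate 3, and Idh1 was lowest in replicate 3 and highest in replicate 4.

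The oxoglutarate dehydrogenase complex takes the next step. Ogdh, its first component, ran from 93.0 to 119.9 FPKM and its succinyltransferase core Dlst from 75.0 to 93.1 FPKM, with Ogdh minus Dlst at 0.34 ± 0.10 and Ogdh higher in each library, although the ranges overlapped. The mean core level of this complex, 85.0 FPKM for Dlst, compares with 11.9 FPKM for Dlat, the matching core of pyruvate dehydrogenase. Ogdhl, a homolog of Ogdh, stood at 0.944 ± 0.0597 FPKM, and Ogdh minus Ogdhl was 5.80 ± 0.20. Ogdh could not be placed against 100 FPKM (log2 difference 0.10, SE 0.06, adjusted p = 0.15) but was called above it without replicate 1 (0.15, adjusted p = 0.034) and after rescaling to a sum of 1000000 FPKM (0.42, adjusted p = 3.6e-05). Dlst lay below it (log2 difference -0.24, SE 0.05, adjusted p = 0.0026), a call that was lost, with the direction turned, when libraries were rescaled to a sum of 1000000 FPKM (difference 0.09, adjusted p = 0.05).

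Succinyl-CoA synthetase shares the alpha subunit Suclg1 between an ADP-forming enzyme with Sucla2 and a GDP-forming enzyme with Suclg2. Suclg1 had 178, 204, 202, 213 and 218 FPKM in replicates 1 to 5. Sucla2 had 89.8, 96.2, 93.8, 100.4 and 92.5 FPKM in replicates 1 to 5. Suclg2 had 59.1, 63.3, 61.2, 67.5 and 63.0 FPKM in replicates 1 to 5. The ratio of the beta subunits hardly varied: Sucla2 was 1.47 to 1.53 times Suclg2 in FPKM, with a difference of 0.58 ± 0.03 on the log2 scale, the smallest SD of the 19 gene pairs compared. Sucla2 could not be placed against 100 FPKM (log2 difference -0.08, SE 0.04, adjusted p = 0.063) and was called below it without replicate 4 (-0.10, adjusted p = 0.038), after median-ratio scaling (-0.07, adjusted p = 0.044) and with no filter on genes (-0.08, adjusted p = 0.028). A sum of 1000000 FPKM per library put it above (0.24, adjusted p = 4.6e-05). Fh1, the fumarase, had 189, 190.1, 204, 230.5 and 213 FPKM in replicates 1 to 5. The succinate dehydrogenase subunits between these steps, not among the 30, stood at 655 ± 36.1 FPKM for Sdha, 301 ± 22.9 FPKM for Sdhb, 282 ± 13.6 FPKM for Sdhc and 307 ± 26.0 FPKM for Sdhd.

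The cytosolic and export branch was uneven. Of its 7 genes 5 lay above 10 FPKM (27.7% of all tested genes) and 2, Me1 and Slc25a1, below (68.4%). Its median was 91.8 ± 11.04 FPKM. The malate-aspartate shuttle carries reducing equivalents into mitochondria. Mdh1, the cytosolic malate dehydrogenase, had 611, 716, 669, 716 and 712 FPKM in replicates 1 to 5, the second highest of the 30 and below Mdh2 in each library (Mdh2 minus Mdh1 0.35 ± 0.05, ranges apart). The aspartate transaminases Got2 of mitochondria and Got1 of the cytosol stood at 155 ± 18.1 FPKM and 96.6 ± 7.35 FPKM, with Got2 minus Got1 at 0.68 ± 0.14. Their carriers, not among the 30, were the oxoglutarate carrier Slc25a11 at 62.6 ± 4.23 FPKM and the aspartate-glutamate carriers Slc25a13 at 53.8 ± 4.46 FPKM and Slc25a12 at 23.5 ± 5.22 FPKM. Got1 and Idh1 could not be placed against 100 FPKM (differences -0.05 and -0.10), but after rescaling to a sum of 1000000 FPKM both were called above it, Got1 with a difference of 0.27 (adjusted p = 7.8e-05) and Idh1 with 0.23 (adjusted p = 0.0099).

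Citrate leaves mitochondria through the carrier Slc25a1 and is split to acetyl-CoA by Acly, the ATP citrate lyase. Acly had 170.1, 212, 172, 199.7 and 182 FPKM in replicates 1 to 5. Slc25a1 had 5.70, 5.10, 6.74, 6.90 and 5.78 FPKM in replicates 1 to 5, 2.41% to 3.93% of Acly, and Acly minus Slc25a1 was 4.74 ± 0.24. Acly minus Cs was -0.54 ± 0.15, with Cs the higher in 5 of 5 libraries. Fasn, Acaca and Acss2, which use or supply cytosolic acetyl-CoA and are not among the 30, were lower than Acly. The fatty acid synthase Fasn stood at 35.4 ± 3.41 FPKM, acetyl-CoA carboxylase Acaca at 12.0 ± 1.88 FPKM and acetyl-CoA synthetase Acss2 at 1.70 ± 0.258 FPKM.

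Malic enzymes turn malate into pyruvate. Me2, the mitochondrial form, had 22.5, 22.9, 22.1, 22.1 and 23.3 FPKM in replicates 1 to 5, the smallest spread of the 30 genes (CV 2.31%). Me1, the cytosolic form that makes NADPH, had 0.858, 0.737, 1.32, 1.30 and 1.15 FPKM in replicates 1 to 5. The ranges lay far apart, with Me2 minus Me1 at 3.52 ± 0.20. Me1 was called neither above nor below 1 FPKM (log2 difference 0.04, SE 0.08, adjusted p = 0.65), and its difference was -0.001 without replicate 3. Roughly 60 to 114 reads per library stood behind Me1, taking its longest annotated transcript. Me3, another mitochondrial form, stood at 3.60 ± 0.868 FPKM.

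The glutaminase and glutamate dehydrogenase genes had low levels next to the transaminase genes Got1 and Got2. Gls2, the liver-type glutaminase, had 0.538, 2.17, 1.51, 0.615 and 0.492 FPKM in replicates 1 to 5. Replicates 2 and 3 were above 1 FPKM and the other libraries below, and the gene was called on neither side (log2 difference -0.02, SE 0.17, adjusted p = 0.9). The sign of that difference turned without replicate 1 (0.07), without replicate 4 (0.05), without replicate 5 (0.08) and after rescaling to a sum of 1000000 FPKM (0.14). Between about 27 and 135 reads per library stood behind it.

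Glud1, the glutamate dehydrogenase that makes oxoglutarate, had 11.7, 9.15, 14.9, 14.8 and 19.4 FPKM in replicates 1 to 5. It was lowest in replicate 2 and highest in replicate 5, a 2.13-fold range, and Glud1 minus Gls2 was 2.89 ± 0.79. Its call above 10 FPKM (log2 difference 0.41, SE 0.14, adjusted p = 0.021) was lost without replicate 3 (0.38, adjusted p = 0.056), without replicate 4 (0.38, adjusted p = 0.058), without replicate 5 (0.29, adjusted p = 0.059) and when no filter on genes was used (0.41, adjusted p = 0.051). Transaminases also make oxoglutarate from glutamate, and their levels ran far above and below that of Glud1. Glud1 had 5.83% to 10.5% of the FPKM of Got2, and Psat1, the phosphoserine transaminase of serine synthesis, stood at 340.0 ± 36.2 FPKM, whereas the alanine transaminases Gpt2 and Gpt stood at 3.75 ± 0.568 FPKM and 1.06 ± 0.308 FPKM. Glul, which makes glutamine, was at 132 ± 6.09 FPKM, and the asparagine synthetase Asns, which uses it, at 261 ± 40.9 FPKM. The glutamine transporters Slc38a2, Slc38a1 and Slc1a5 were at 55.6 ± 3.05 FPKM, 48.5 ± 3.63 FPKM and 17.8 ± 2.22 FPKM.

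In each of the 19 gene pairs compared within libraries the difference had the same direction in 5 of 5 libraries. Flipping the signs of the 5 differences in all ways, a two-sided exact permutation test, gave p = 0.063 for every pair, also after Benjamini-Hochberg adjustment over the 19 pairs, which is the smallest value 5 libraries allow, so no pair could pass 0.05. FPKM ranges overlapped in 2 pairs, Idh3a with Idh3b and Ogdh with Dlst. Among the differences reported here, those that varied most between libraries were Glud1 minus Gls2 (SD 0.79), Idh2 minus Idh1 (0.54) and Idh3a minus Idh2 (0.48). The most even were Sucla2 minus Suclg2 (SD 0.03), Mdh2 minus Mdh1 (0.05) and Pdha1 minus Pdhb (0.08).

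**Figure D3:**
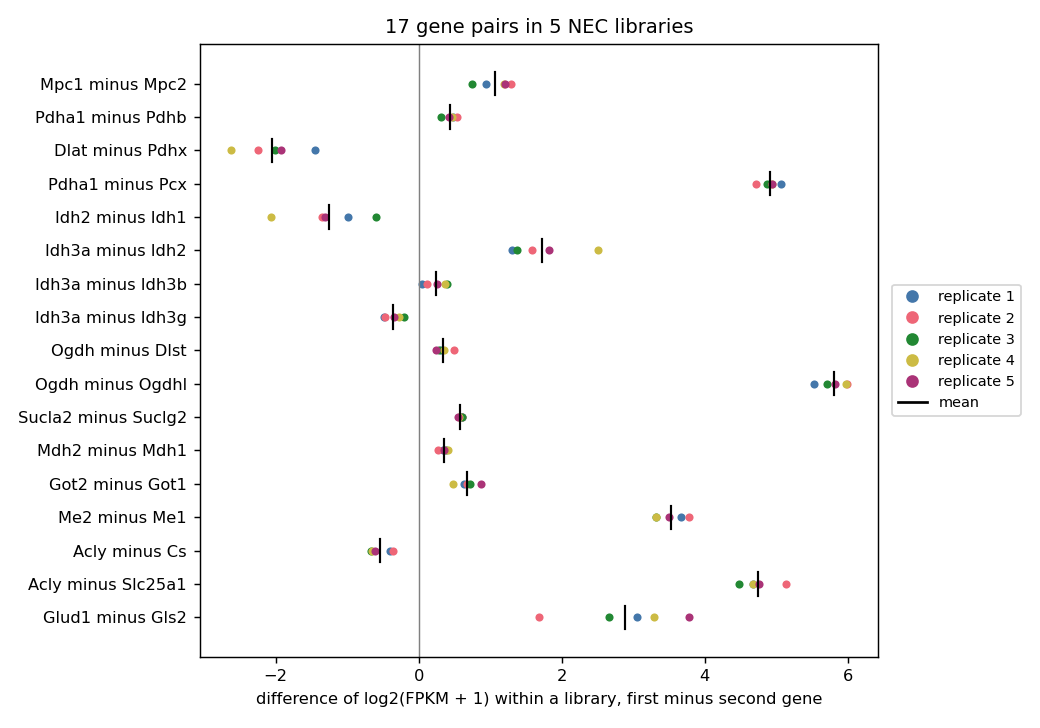
Difference of log2(FPKM + 1) within a library for 17 of the gene pairs, first minus second gene, with 1 coloured point per library and a black bar at the mean. No pair crosses 0, and the points of Sucla2 minus Suclg2 (0.55 to 0.61) nearly coincide, whereas Glud1 minus Gls2 spreads from 1.68 to 3.78.

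Another 53 genes of the same pathways were measured. limma called 45 of them above 1 FPKM (52.3% of all tested genes) and 5 below (41.4%). At 10 FPKM 32 lay above (27.7%) and 17 below (68.4%), and at 100 FPKM 11 lay above (6.80%) and 41 below (92.0%), with a median level of 16.8 ± 1.78 FPKM. Among 9 partners and regulators of pyruvate dehydrogenase, 7 lay above 1 FPKM and 2 below. The kinases that inactivate the complex were at 9.38 ± 2.76 FPKM for Pdk3, 8.96 ± 1.83 FPKM for Pdk1, 2.54 ± 0.983 FPKM for Pdk2 and 0.214 ± 0.170 FPKM for Pdk4. The phosphatases that reactivate it were at 19.2 ± 1.82 FPKM for Pdp2 and 1.53 ± 0.330 FPKM for Pdp1. Pdha2, a testis form of Pdha1, reached 0.0451 FPKM in replicate 3, with all other libraries listed at 0.

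In the list of remaining cycle genes, led by Sdha and Sdhd, 11 of 14 lay above 1 FPKM (52.3% of all tested genes) and 1 below (41.4%). The lowest was Pck1, the cytosolic phosphoenolpyruvate carboxykinase, listed at 0.0533, 0, 0, 0.0143 and 0.0176 FPKM in replicates 1 to 5, whereas the mitochondrial Pck2 stood at 9.82 ± 0.576 FPKM. In the glutamine and amino acid list 13 of 14 lay above 1 FPKM and none below (none at an unadjusted p under 0.05 either), with Psat1 and Asns the highest and Gpt the lowest. Of 6 mitochondrial carriers 5 lay above 1 FPKM and 1 below, the glutamate carrier Slc25a18 at 0.156 ± 0.117 FPKM, while its homolog Slc25a22 stood at 24.1 ± 7.27 FPKM. The acetyl-CoA list had 5 of 6 above and 1 below, with Fasn and Acat1 (23.4 ± 3.39 FPKM) the highest and Acss1 the lowest at 0.298 ± 0.173 FPKM. All 4 lactate genes lay above 1 FPKM, Ldha and Ldhb (289 ± 35.6 FPKM) the highest and the lactate exporter Slc16a3 the lowest at 5.82 ± 2.33 FPKM, with Ldhb at 6.01% to 8.23% of Ldha.

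**Figure D4:**
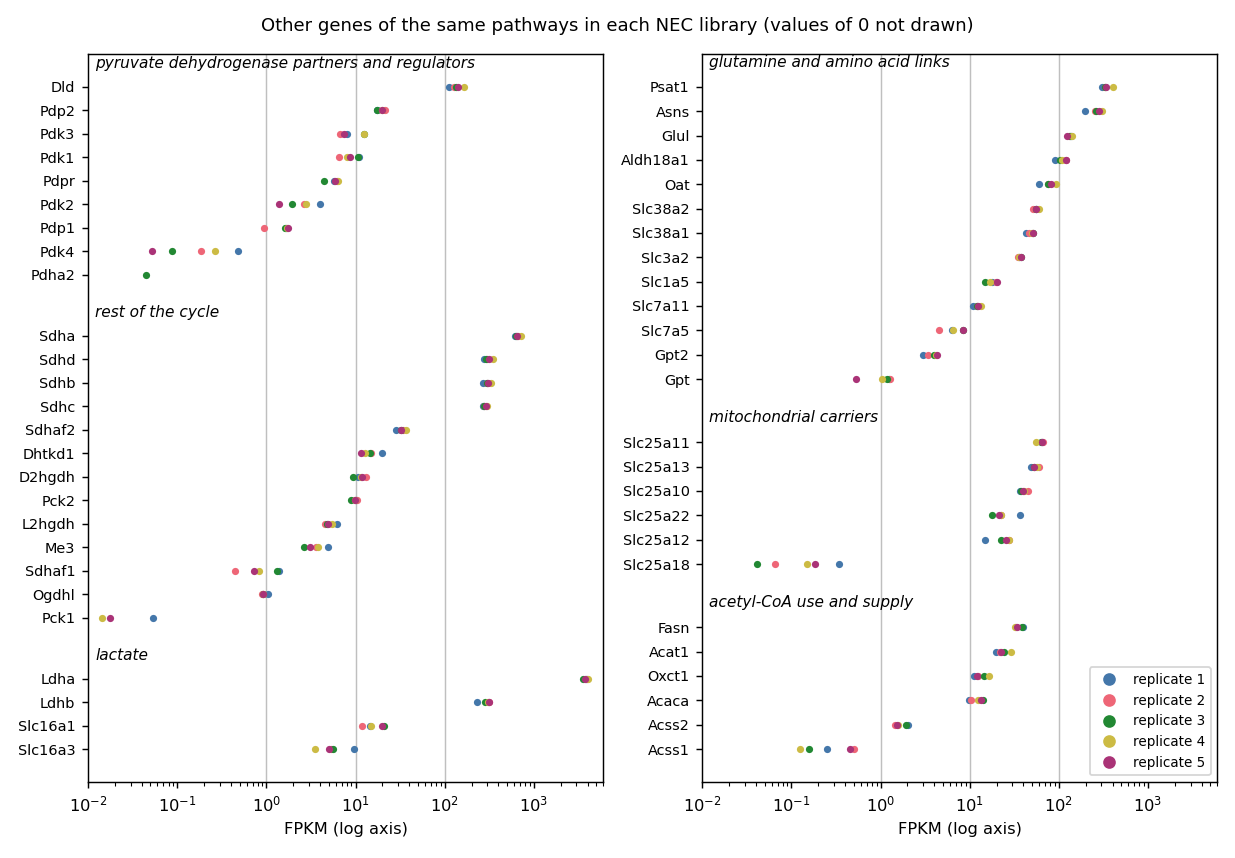
FPKM (log axis) of 51 other genes of the same pathways, grouped by list and ordered by mean, with 1 coloured point per library; values of 0 are not drawn, and grey lines mark 1, 10 and 100 FPKM. The succinate dehydrogenase subunits lie between 268 and 709 FPKM, and Pdk4, Pck1, Pdha2, Slc25a18 and Acss1 lie under 1 FPKM.

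Many of the 30 genes were low in replicate 1 and high in replicate 4. Replicate 1 was the lowest library for 17 of the 30 and the highest for none, and replicate 4 was the highest for 18. Over the 10983 genes that averaged 1 FPKM or more, replicate 1 was the lowest for 35.0% and the highest for 16.4%, and replicate 4 the highest for 27.0%. The median deviation of the 30 genes from their own means was -0.13, 0.02, -0.02, 0.13 and 0.02 on the log2(FPKM + 1) scale in replicates 1 to 5, against -0.06, 0.01, 0.00, 0.03 and 0.01 over all those genes. The FPKM sum was also lowest in replicate 1 and highest in replicate 4. Rescaling to equal sums left deviations of -0.04 in replicate 1 and 0.04 in replicate 4, and a range over libraries of 0.08 in place of 0.26. All those genes were then at 0.02 in replicate 1 and -0.05 in replicate 4. Relative to them the 30 genes thus still lay lower in replicate 1 and higher in replicate 4. On that scale replicate 1 was the lowest for 10 of the 30 (18.5% of all genes) and the highest for 6 (28.4%), and replicate 4 the highest for 8 (13.0%). Replicate 3 was the lowest for 9 (21.1%) and replicate 5 the highest for 8 (14.2%), so by these counts replicates 1 and 4 stood apart less from the other libraries. After median-ratio scaling replicate 1 was the lowest for 11 (22.5%) and replicate 4 the highest for 15 (21.6%). The median deviations of the 30 genes were then -0.07 in replicate 1 and 0.09 in replicate 4, against a range over libraries of 0.00 for all those genes.

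Idh2 and Dlat went the other way in replicate 4, with deviations of -0.58 and -0.50 on the log2 scale, against 0.21 for Cs and Idh3a and 0.13 for Mdh2. Gls2 (-0.29), Got2 (-0.06) and Me2 (-0.03) were also below their own means there. Glud1 deviated by -0.53 in replicate 2 and 0.48 in replicate 5, and Gls2 by 0.69 in replicate 2 and -0.40 in replicate 5. The SD of log2(FPKM + 1) was 0.20 or more for 8 of the 30 genes and under it for 22, with a median of 0.14, against 0.16 over those 10983 genes. Over the 26 members that averaged 10 FPKM or more the median SD was 0.12, against 0.13 over 5861 such genes.

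The median deviations of the cell type marker lists spread more between libraries than that of the 30 genes, whose range was 0.26. These lists were much shorter, and a median over few genes is less steady. The 4 genes of the mitochondrial malate, aspartate and glutamine branch had a range of 0.34, against 0.42 for the 9 progenitor markers that averaged 1 FPKM or more. The mesenchyme list had median deviations of -0.86, -0.34, 0.51, 0.23 and 0.36 in replicates 1 to 5, and the surface ectoderm list -0.26, 0.36, 0.24, -0.16 and -0.15. The neural progenitor list had 0.20, 0.10, -0.22, -0.09 and -0.02, and the neuron list 0.34, 0.22, -0.32, -0.01 and -0.07. Over the few markers that averaged 1 FPKM or more, the neural crest list (2 genes) had -0.86, -0.19, 0.59, 0.16 and 0.31, the endothelium list (3 genes) -0.37, -0.19, -0.22, 0.14 and 0.26, and the blood list (1 gene, Hbb-y) -0.59, -0.40, 0.02, 0.75 and 0.22. Replicate 1 had the lowest median deviation of the 30 genes and of the mesenchyme, surface ectoderm, neural crest, endothelium and blood lists, and the highest of the progenitor and neuron lists. Replicate 4 had the highest median deviation of the 30 genes and of the blood list. The summed neuron markers were highest in replicate 2 (124 FPKM, against 117 in replicate 1), and among them Gap43 ran the other way, with its minimum in replicate 1 and its maximum of 23.4 FPKM in replicate 3. The part of cell composition in the metabolic levels was not tested.

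**Figure D5:**
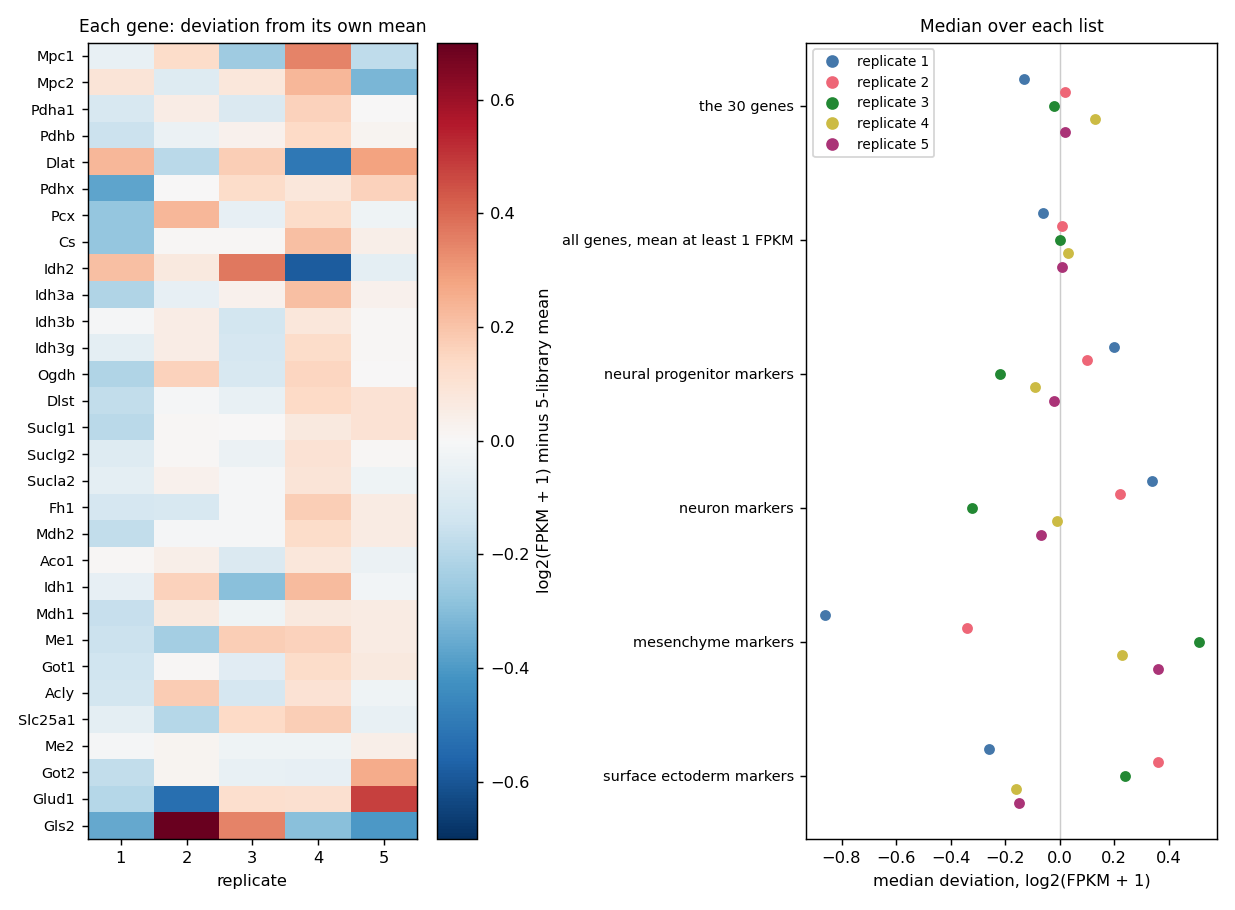
Left, deviation of log2(FPKM + 1) from the gene's 5-library mean for each of the 30 genes by replicate (blue below, red above the mean); right, the median deviation of gene lists, with 1 coloured point per library. Most rows are blue in replicate 1 and red in replicate 4, while Idh2, Dlat and, less strongly, Gls2 are blue in replicate 4. The mesenchyme markers spread from -0.86 to 0.51.

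Ordered by mean level, 22 of the 29 neighbouring pairs among the 30 genes had overlapping ranges. In 17 of these 22 the order of the pair turned in at least 1 library, and in the other 5 (Suclg1 and Pdhb, Acly and Idh3g, Idh3a and Idh3b, Ogdh and Got1, Pcx and Slc25a1) the first gene was higher in 5 of 5 libraries. The 7 steps without overlap lay between Mdh2 and Mdh1, Mdh1 and Cs, Pdha1 and Fh1, Dlst and Suclg2, Suclg2 and Pdhx, Me2 and Glud1, and Slc25a1 and Me1. Reads of copies or of overlapping genes could have entered some levels. Stretches of at least 300 bases with 95% identity or more to the longest coding transcript were found in processed pseudogenes for Got2, Glud1, Me1, Pdhb and Suclg2, and in long noncoding RNAs for Got2 and Me1. The Got2 match among these that has its own row, Gm10874, was listed at 6.38 to 9.52 FPKM. Exons of another gene on the opposite strand overlapped those of Mpc1, Pdha1, Idh3b, Mdh1, Me1, Got2 and Gls2, and the labels do not say that strand was kept, so the levels of these genes are uncertain to that extent.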

How the data were processed

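Total RNA of 5 mouse NEC libraries was made into full-length cDNA from a poly-dT primer, amplified for 12 cycles, sheared and amplified for 15 more, and read as single 75-base reads, per the labels' protocols. Amplified cDNA of this kind can favour some transcripts, which touches comparisons between genes more than those between libraries. The authors deposited FPKM per gene and library. CASAVA 1.8, cutadapt, TopHat2 2.0.11, Cuffdiff 2.2.1 and build mm10 are named in the submitters' processing notes, with no role or order; the annotation release is not given in the sources used here. Columns were matched to samples by replicate number.

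A count test does not suit FPKM and was not run. Values were put on log2(FPKM + 1), a scale that understates differences between low genes. With limma 3.58.1 in R 4.3.3 each gene's mean was tested, two-sided with a variance trend, against 1, 10 and 100 FPKM. The test was also run on simulated independent normal values. Its outcome is not given here, and such values do not mimic shifts shared by the genes of a library. The implied read totals rest on single-transcript genes under 0.15 FPKM and over 800 bases, with 200 bases taken off the length, the sharpest of the offsets tried after seeing the data; read numbers are approximate and cover counting error only. Coordinates, lengths and overlaps are GENCODE M21 (mm10), and copies were sought with BLAST 2.17.0. The alternatives were a pseudocount of 0.1, 2 other scalings, other filters, limma without the trend or with robust variance, and leaving out each library. The members, lists and pairs were chosen with earlier results of these data known. All 30 members, both genes of each pair and the 2 highest and the lowest gene of each other list were named by rule; any other gene was picked with its values known. The values of 2 other pathway genes and 1 marker, and of the 2 pairs that hold those genes, are not reported here but are part of the counts.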

Additional observations from a re-analysis of the deposited data

Results flagged for a closer look

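Each of 75 values (51 genes, 19 pair differences and 5 group medians) was searched for 1 library far from the other 4, by its gap relative to the whole range against Dixon's critical value of 0.71. Chance flags about 1 in 20 such groups, and 2 were found, neither among the 30 genes. Ogdhl had 1.05 FPKM in replicate 1, against 0.925 FPKM in the next highest library. Pdha2 had 0.0451 FPKM in replicate 3 and was listed at 0 in the other 4. With 4 values of 0 the gap fills the whole range, so this flag follows from the zeros. The rate of 1 in 20 does not apply to it.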

How the results depend on the processing

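Of 1080 results for the 30 genes at 3 levels under 12 alternatives, 1054 kept their direction and their side of the threshold, 10 lost a call in the same direction, 7 gained one in the same direction and 9 changed direction. Of these 9, 3 also gained a call (Sucla2, Idh1 and Got1 above 100 FPKM), 1 lost one (Dlst) and 5 had none before or after. Those that changed direction were Dlst (0.09), Sucla2 (0.24), Idh1 (0.23) and Got1 (0.27) against 100 FPKM and Gls2 (0.14) against 1 FPKM after rescaling to a sum of 1000000 FPKM, Me1 against 1 FPKM without replicate 3 (all libraries left out in turn, -0.001 to 0.10) and Gls2 without replicate 1, 4 or 5 (in turn, -0.19 to 0.08). All 152 alternatives of the 19 pairs kept their direction, an outcome fixed in advance. Each difference had the same sign in every library. Another pseudocount, a factor common to a library or leaving a library out cannot turn such a difference. Counts of the 30 genes stayed within 1.5 times the reported value under each alternative, while testing only genes that averaged 0.1 FPKM or more left 3 and not 5 other pathway genes called below 1 FPKM, since fewer genes were tested. Over all genes that filter left 3495 and not 8167 called below 1 FPKM, and 8800 and not 13480 below 10 FPKM. Rescaling to a sum of 1000000 FPKM moved the medians to 117 FPKM for the 30 genes, 33.3 for pyruvate entry, 151 for the mitochondrial cycle, 114.8 for the cytosolic branch and 22.9 for the malate, aspartate and glutamine branch, by construction. The range of median deviations over libraries became 0.08, 0.07, 0.09 and 0.12 for the 30 genes and the first 3 of these groups, and 0.16, 0.15 and 0.17 for the 30 genes, pyruvate entry and the cycle after median-ratio scaling, against 0.26, 0.25, 0.27 and, for the cytosolic branch, 0.27. Over all genes averaging 1 FPKM or more that range was 0.07 after rescaling to equal sums and 0.00 after median-ratio scaling, against 0.09. No paired analysis was possible because the series has 1 group. Depth limits Me1 and Gls2, with as few as 60 and 27 reads in 1 library.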
